A study of Mus musculus with 16 samples.

Results

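The 5 genes described here, Nxf3, 9330121J05Rik, Fam107a, Pla2g3 and Arl4d, are grouped as little-studied transcripts, although Fam107a is already known as glucocorticoid-responsive. All 5 were higher in the mouse dorsal raphe nucleus (DRN) after dexamethasone than after saline, by 2.53-fold (Fam107a) to 7.59-fold (Nxf3) averaged over phenotypes. They are 5 of the 14504 genes in the table of normalized counts. The members were chosen by name on their dexamethasone minus saline difference in these same libraries, within control, passive coping and active coping mice alike. That difference is therefore given as a description with no test. Tests were kept for differences between stress groups within a treatment, which the choice did not use, and for differences between phenotypes in the dexamethasone change. The latter are built from the changes used in the choice, which required a strong increase in every phenotype, so they are not independent of it.

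The study examined how chronic social stress shapes the transcriptional response to glucocorticoid receptor activation. Adult male C57BL/6 mice went through 30 days of repeated defeat by aggressive CD1 partners and were sorted by clustering of their behaviour into a passive coping strategy (PS, labelled dep1) and an active coping strategy (AS, labelled dep2), with unstressed mice as control. After the last session, each mouse received saline or dexamethasone (DEX, 2 mg/kg, by intraperitoneal injection), and the DRN was punched from frozen sections 6 h later for polyA RNA sequencing. The 16 libraries were 3 control saline, 3 control DEX, 2 PS saline, 3 PS DEX, 3 AS saline and 2 AS DEX libraries, each with its own animal number in the labels, and all came from males of 1 strain, with no other allele named. The study left out DRN libraries whose Tph2 was an outlier on the low side, all of them from the PS and AS DEX groups. The libraries here were therefore kept partly on a marker level. The paper counts more DRN libraries than these 16. The Tph2 cut took none from the saline or control groups, and the paper's text gives no reason for the difference. A group with 2 libraries gives only a rough measure of spread.

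DEX is a synthetic ligand of the glucocorticoid receptor, a transcription factor that moves to the nucleus on binding hormone and acts on nearby genes through DNA elements built from a pair of 6-base elements. In the brain, glial and endothelial cells as well as neurons carry the receptor, and Fkbp5, Sgk1 and Tsc22d3 are its best-known induced targets. The 5 genes have unrelated products: a nuclear RNA export factor family member (Nxf3), an actin-binding stress protein (Fam107a), a secreted phospholipase (Pla2g3), a small GTPase (Arl4d) and a long noncoding RNA (9330121J05Rik).

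The libraries held between 38207157 and 62447298 reads assigned to genes. The serotonin neuron markers used as a check of the tissue were abundant in all of them, with Tph2, the enzyme of serotonin synthesis in neurons, at 91764 to 182191 normalized counts, the serotonin transporter Slc6a4 at 74627 to 129820.2 and the serotonergic transcription factor Fev at 3483 to 9636. Because libraries with low Tph2 had been left out, the Tph2 level is no independent check. A normalized count is the number of reads assigned to a gene, divided by a size factor for the depth of that library, and it is not corrected for gene length. All changes below are on the log2(normalized count + 1) scale, and all p-values are from limma, with Benjamini-Hochberg adjustment over the 14504 genes and a call at an adjusted p under 0.1.

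In each of the 5 genes, all 8 DEX libraries lay above all 8 saline libraries, a separation that 198 of the 14504 genes (1.37%) showed and that the choice of members fixed. The lowest DEX value was 3.69 times the highest saline value in Nxf3, 2.83 times in 9330121J05Rik, 1.89 times in Fam107a, 1.77 times in Pla2g3 and 1.12 times in Arl4d. By average log2 change over the 3 phenotypes, Nxf3 stood at rank 3 of the table, 9330121J05Rik at rank 5, Pla2g3 at rank 30, Arl4d at rank 49 and Fam107a at rank 57. The set thus spans the top of the DEX response, with Nxf3 and the noncoding RNA far from any overlap and Arl4d almost touching it.

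**Figure D1:**
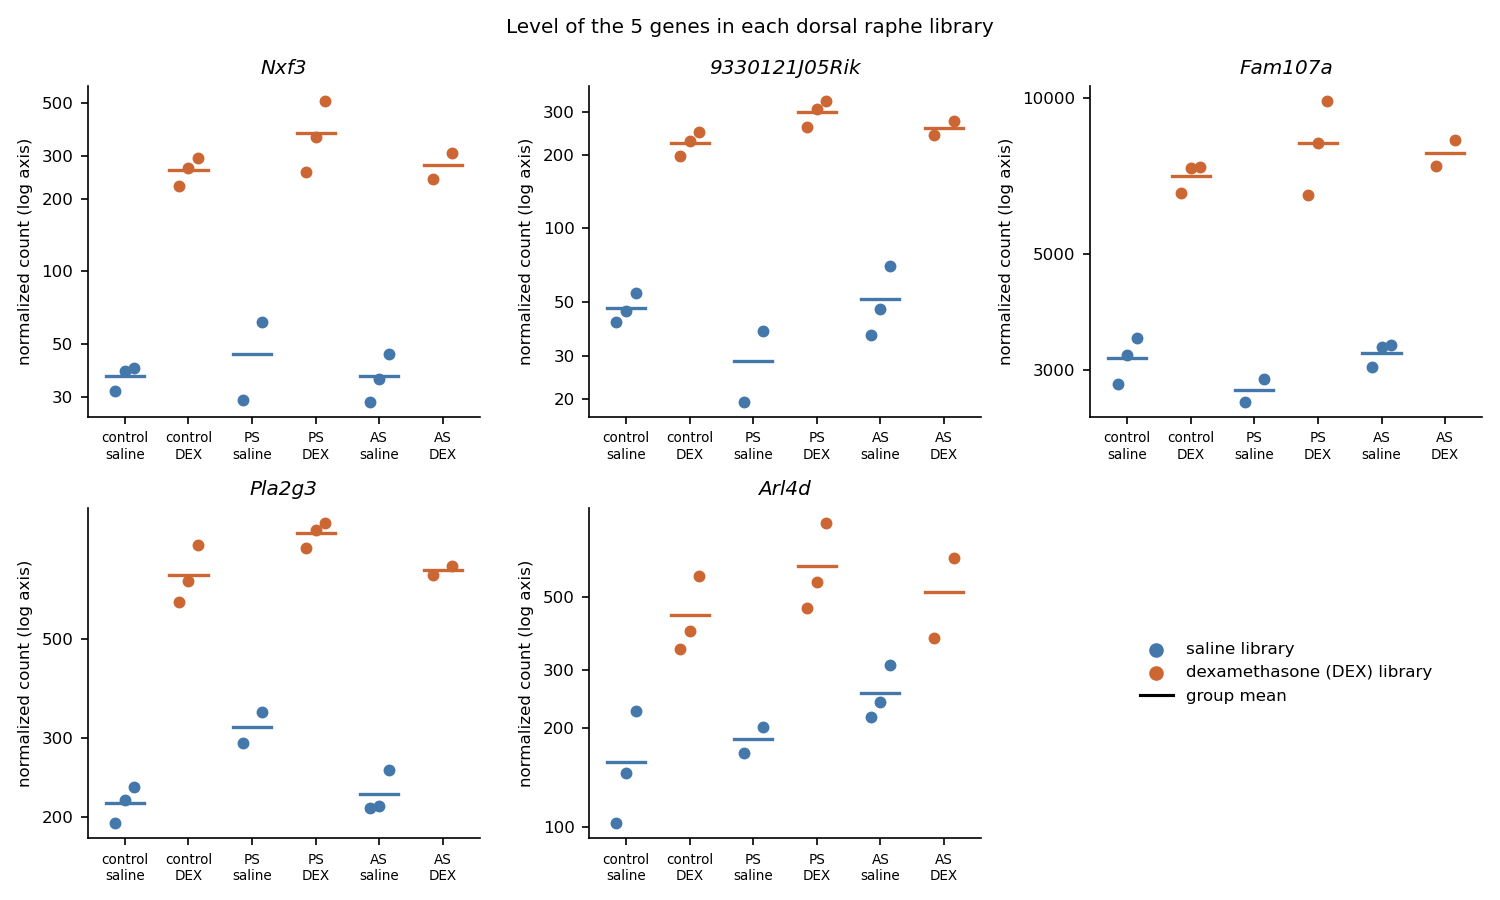
Normalized counts (log axis) of the 5 genes in the 16 libraries, with saline libraries in blue, DEX libraries in orange and a bar at each group mean. In every panel the 8 DEX points lie above the 8 saline points, with a wide gap in Nxf3 and the narrowest in Arl4d, where the lowest DEX library is 1.12 times the highest saline library.

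Nxf3 (ENSMUSG00000057000.12) belongs to the nuclear RNA export factor family, whose founding member Nxf1 carries mRNA through the nuclear pore. It lies on the minus strand of chromosome X at 136072099 to 136085255 (GRCm38), with 3048 annotated exon bases. In control mice its normalized counts were 31.7, 38.7 and 39.6 after saline and 227, 269 and 294 after DEX. In PS mice they were 29.2 and 61.3 after saline and 258, 362 and 509 after DEX. In AS mice they were 28.7, 35.7 and 45.4 after saline and 242 and 311 after DEX. The saline values of the 3 phenotypes overlapped throughout, and the 2 highest DEX values were both from PS mice. The DEX minus saline log2 change was 2.81 (SE 0.31) in control, 3.06 (SE 0.34) in PS and 2.90 (SE 0.34) in AS mice, or 7.01-fold, 8.37-fold and 7.45-fold. The PS value moved most with single libraries, to 2.54 without PS saline library 68 and to 3.59 without PS saline library 62. At saline, Nxf3 rested on only 25 to 63 reads per library, against 195 to 482 reads after DEX.

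9330121J05Rik (ENSMUSG00000103502.1) is annotated as an antisense noncoding RNA with a single exon of 3009 bases on the minus strand of chromosome 3, at 62337524 to 62340532. Its normalized counts in control mice were 41.5, 45.8 and 54.5 after saline and 198, 229 and 248 after DEX. In PS mice they were 19.5 and 37.98 after saline and 259.7, 308 and 333 after DEX. In AS mice they were 36.7, 46.7 and 70.1 after saline and 241 and 276 after DEX. The lowest saline value and the 2 highest DEX values were all from PS mice. The log2 change was 2.23 (SE 0.28) in control, 3.41 (SE 0.31) in PS and 2.36 (SE 0.31) in AS mice, or 4.69-fold, 10.6-fold and 5.15-fold, the widest spread between phenotypes in the set.

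Much of this RNA lies across a protein-coding gene on the other strand. Exons of Arhgef26, a guanine nucleotide exchange factor, cover 2189 of the 3009 bases (72.7%), and 820 bases at the 3′ end (27.3%) are clear of it. Whether the counting used the strand of the reads was not stated in the sources used here, although the libraries were strand-specific. Arhgef26 itself stood at 1216 normalized counts or more in each saline library, and its log2 change with DEX was -0.17 (SE 0.10, adjusted p = 0.445), opposite in sign to the change of 9330121J05Rik and below the call. The first 200 bases of the stretch clear of Arhgef26 (chr3:62338144-62338343, minus strand, GRCm38, from the GENCODE vM21 transcript, bases 2190 to 2389 of the RNA) are shown because reads there cannot come from the exons of the opposite gene.
9330121J05Rik: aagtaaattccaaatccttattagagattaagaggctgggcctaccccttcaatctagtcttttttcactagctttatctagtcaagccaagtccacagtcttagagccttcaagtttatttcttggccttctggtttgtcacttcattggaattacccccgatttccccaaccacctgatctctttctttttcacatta

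Fam107a (ENSMUSG00000021750.15) encodes an actin-binding protein, also known as DRR1, that is known as a stress- and glucocorticoid-responsive gene of the brain and is expressed in astrocytes. It lies on the minus strand of chromosome 14 at 8296274 to 8318023, with 3870 exon bases. In control mice its normalized counts were 2816, 3202 and 3453 after saline and 6572, 7329 and 7359.9 after DEX. In PS mice they were 2600.4 and 2873 after saline and 6516, 8211 and 9874 after DEX. In AS mice they were 3029, 3314 and 3338 after saline and 7404 and 8303 after DEX. The PS DEX libraries held both the lowest and the highest DEX value of the gene. The log2 change was 1.17 (SE 0.13) in control, 1.56 (SE 0.15) in PS and 1.28 (SE 0.15) in AS mice. This is the smallest average fold of the set but by far the largest difference in normalized counts, with control means of 3157 ± 321 (SD, n = 3) after saline and 7087 ± 446 (SD, n = 3) after DEX.

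RefSeq promoter sequences (GRCm38.p6, the 250 bases before each annotated start) were found for 2 of the 5 genes, Fam107a and Arl4d. They were searched on both strands for the glucocorticoid receptor element AGAACA or its reverse complement TGTTCT, and for a looser pair, GNACA followed after 3 bases by TGTNC, which reads as the same pattern on the other strand. The single element was present in 16.1% of 32851 such windows, and at 2 or more places in 1.81%. The looser pair was in 0.387%, while the strict pair, AGAACA and TGTTCT 3 bases apart, was in 3 of them (0.00913%). Fam107a has 3 annotated starts, a distal one at base 8317607 and a pair of internal ones at 8309779 and 8309777. The window before the distal start held none of these letters. The window before the internal start (chr14:8309780-8310029, minus strand) held the single element at 2 places, with first bases at -158 and -110 counted from the start, and the looser pair from -118 to -106. The pair and the second element overlap, and capitals mark all of them.
Fam107a, internal start: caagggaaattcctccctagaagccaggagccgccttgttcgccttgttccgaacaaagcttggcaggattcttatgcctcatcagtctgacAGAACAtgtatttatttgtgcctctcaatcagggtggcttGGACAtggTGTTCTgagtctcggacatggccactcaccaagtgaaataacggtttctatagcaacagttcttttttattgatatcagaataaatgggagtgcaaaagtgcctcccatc

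A match in these letters is a description of the sequence and not a measured binding site, and counts per gene cannot tell which of the 3 starts was used. The Arl4d window (chr11:101665291-101665540, plus strand) held neither the single element nor the looser pair, and is shown beside that of Fam107a as the only other one at hand.
Arl4d: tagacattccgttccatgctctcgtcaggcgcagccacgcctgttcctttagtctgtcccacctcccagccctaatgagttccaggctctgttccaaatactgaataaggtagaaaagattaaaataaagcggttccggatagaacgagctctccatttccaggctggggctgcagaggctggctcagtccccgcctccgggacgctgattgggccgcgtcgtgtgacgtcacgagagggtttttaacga

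Pla2g3 (ENSMUSG00000034579.17) encodes the group III secreted phospholipase A2, a mammalian relative of the bee venom enzyme that releases fatty acids and lysophospholipids from membrane phospholipids. It lies on the plus strand of chromosome 11 at 3488284 to 3499350, with 4696 exon bases, of which 401 (8.54%) are shared with Inpp5j on the opposite strand. In control mice its normalized counts were 193, 218 and 234 after saline and 605, 673 and 812 after DEX. In PS mice they were 292 and 343 after saline and 799.7, 878 and 911 after DEX. In AS mice they were 209, 211 and 254 after saline and 696 and 729.7 after DEX. Both PS saline libraries lay above all 6 other saline libraries. The log2 change with DEX was 1.69 (SE 0.15) in control, 1.44 (SE 0.16) in PS and 1.66 (SE 0.16) in AS mice, or 3.22-fold, 2.72-fold and 3.17-fold, so that it was the 1 member with its smallest fold in PS mice.

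Arl4d (ENSMUSG00000034936.2) encodes an ARF-like small GTPase that brings cytohesins, the exchange factors of ARF6, to the plasma membrane. It lies on the plus strand of chromosome 11 at 101665541 to 101667832, with 1382 exon bases. In control mice its normalized counts were 103, 147 and 225 after saline and 349, 394 and 581 after DEX. In PS mice they were 169 and 202 after saline and 464, 557 and 843 after DEX. In AS mice they were 216, 240.2 and 312 after saline and 375 and 659.9 after DEX. The groups did not overlap within any phenotype, but the scatter between mice was the widest of the set, with an SD within groups of 0.43 on the log2 scale against 0.15 for Pla2g3 and 0.17 for Fam107a. The log2 change was 1.51 (SE 0.32) in control, 1.70 (SE 0.35) in PS and 0.97 (SE 0.35) in AS mice. The AS value rests on the 2 DEX libraries, since it was 0.56 without AS DEX library 42 and 1.38 without AS DEX library 38.

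**Figure D2:**
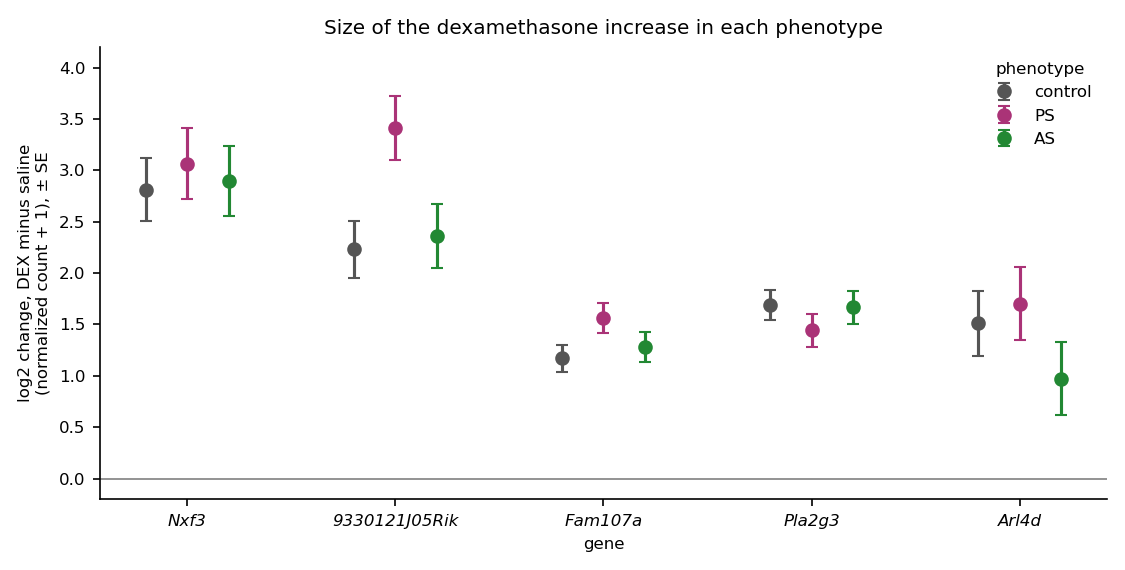
Log2 change, DEX minus saline, of the 5 genes in control, PS and AS mice, with the SE of the fit. Nxf3 and 9330121J05Rik lie highest, 9330121J05Rik has its largest value in PS mice (3.41 against 2.23 in control), and Arl4d has its smallest in AS mice (0.97).

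Levels can be set beside each other only per length. In normalized counts per kilobase of exon, the 8 saline libraries ranged from 672 to 892 for Fam107a, from 74.4 to 226 for Arl4d, from 41.2 to 73.0 for Pla2g3, from 6.47 to 23.3 for 9330121J05Rik and from 9.43 to 20.1 for Nxf3. Fam107a, Arl4d and Pla2g3 were thus separate from each other and from the rest, and Nxf3 and 9330121J05Rik overlapped. After DEX the ranges were 1684 to 2551 for Fam107a, 252 to 610.0 for Arl4d, 129 to 194 for Pla2g3, 74.3 to 167 for Nxf3 and 65.9 to 111 for 9330121J05Rik. The order was kept at the top, while Nxf3 after DEX overlapped Pla2g3 as well as 9330121J05Rik.

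Whether stress shifted the 5 genes was tested in 9 contrasts, namely the 3 pairs of phenotypes at saline, the same pairs after DEX, and the 3 differences in the DEX change between phenotypes (interactions), with an F test of any stress difference beside them. The interactions are built from the DEX changes by which the members were chosen, so their p-values are not independent of the choice. None of the 45 single tests of the members passed, with adjusted p between 0.571 and 1. Over all genes the outcome was alike. At the same threshold limma called 0 of 14504 genes (0%) in 8 of the 9 contrasts and in the F test, and 1 gene (0.00689%, the gene model Gm11583) in AS minus control after DEX. Without adjustment, between 178 and 1112 genes per contrast (1.23% to 7.67%) had a limma p under 0.05, and 8 of the 45 member tests did. Those tests are not separate, since most are of Pla2g3 or 9330121J05Rik in contrasts that share the PS saline libraries. edgeR on the recovered reads called 0 genes in each of the 9 contrasts, and DESeq2 called between 0 and 12, none of them a member.

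The stress difference with the smallest unadjusted p was that of Pla2g3 at saline. The 2 PS saline libraries exceeded the 3 control saline libraries by a log2 difference of 0.56 (SE 0.16, 95% interval 0.21 to 0.91), with an unadjusted p of 0.00404 in limma and an adjusted p of 0.571. AS minus PS at saline was -0.50 (SE 0.16, 95% interval -0.85 to -0.15), with an adjusted p of 0.728 in limma. After DEX the PS libraries were above the control libraries by 0.32 (SE 0.15, 95% interval 0.00 to 0.63), with an adjusted p of 1 in limma. Pla2g3 was therefore highest in PS mice under both treatments, with no overlap at saline and an overlap of 1 control library after DEX, and no contrast passed the adjustment. Its DEX change in PS minus that in control mice was -0.24 (SE 0.22, 95% interval -0.71 to 0.23).

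In 9330121J05Rik the PS group had the lowest mean at saline and the highest after DEX. At saline PS minus control was -0.76 (SE 0.31, 95% interval -1.43 to -0.10), with an unadjusted p of 0.0278 and an adjusted p of 0.571 in limma. At saline AS minus PS was 0.83 (SE 0.31, 95% interval 0.17 to 1.502), with an adjusted p of 0.728 in limma. After DEX all 3 PS libraries lay above all 3 control libraries. The DEX change in PS exceeded that in control mice by 1.18 (SE 0.42, 95% interval 0.28 to 2.07) and the AS minus PS difference in the DEX change was -1.04 (SE 0.44, 95% interval -1.99 to -0.10), with unadjusted p of 0.0137 and 0.0328 and adjusted p of 1 and 0.869 in limma. The PS saline value behind these differences is that of 2 libraries with 18 and 39 reads on this RNA. Leaving out PS saline library 68 gave an interaction of 0.71, and leaving out PS saline library 62 gave 1.64.

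In the other 3 genes 1 stress test had an unadjusted p under 0.05. Arl4d at saline was higher in AS than in control mice by 0.75 (SE 0.32, 95% interval 0.07 to 1.43), with an unadjusted p of 0.0333 and an adjusted p of 0.998 in limma, and 1 of the 3 control libraries (224.9 normalized counts) lay inside the AS range. Its DEX change in AS minus that in control mice was -0.54 (SE 0.47, 95% interval -1.56 to 0.48), and in AS minus that in PS mice -0.73 (SE 0.50, 95% interval -1.80 to 0.35). Fam107a in PS minus control saline libraries was -0.20 (SE 0.15, 95% interval -0.52 to 0.11), and its DEX change was larger in PS than in control mice by 0.39 (SE 0.20, 95% interval -0.03 to 0.81), with an adjusted p of 1 in limma. Nxf3 after DEX differed by 0.47 (SE 0.31, 95% interval -0.19 to 1.12) between PS and control mice and by -0.40 (SE 0.34, 95% interval -1.13 to 0.34) between AS and PS mice, intervals that hold both no difference and a difference of more than 2-fold. After DEX the PS group had the highest mean of the 3 phenotypes in all 5 genes, which share the same 8 libraries, and in none did PS minus control pass the adjustment. The share of all genes with this order was not counted. The summed level of the glucocorticoid target genes listed below was also highest in PS DEX libraries 34 (83291 normalized counts) and 64 (89095). It was 65807 to 74813 in control DEX and 73520 to 75575 in AS DEX libraries, and lowest in PS DEX library 6 (65309).

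The family relatives of the members, which the choice did not use, were read from gene lists. Of 8 listed genes of mRNA export (Nxf1, its partners and the TREX complex), 0 were called with DEX in either direction, against a background of 403 of 14504 genes called higher (2.78%) and 222 called lower (1.53%) in the average over phenotypes. Nxf1 had a log2 change of 0.17 (SE 0.08, adjusted p = 0.355), and Nxf2 and Nxf7 were not listed. Fam107b, the other gene of its family, had -0.30 (SE 0.14, adjusted p = 0.37). Pla2g12a, the 1 other secreted phospholipase A2 listed, had 0.13 (SE 0.08, adjusted p = 0.463), and 0 of 4 listed intracellular phospholipases A2 were called, with Pla2g4e the highest at 0.41 (SE 0.14, adjusted p = 0.158). Of 6 listed genes of the ARL4 family with the cytohesins and Arf6, 1 was called higher, the cytohesin Cyth2, at 0.29 (SE 0.08, adjusted p = 0.0732). Leaving out 1 library at a time lost that call in 14 of 16 fits. The nearest relatives of Arl4d, Arl4a and Arl4c, had log2 changes of -0.02 (SE 0.07, adjusted p = 0.901) and -0.03 (SE 0.09, adjusted p = 0.904).

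**Figure D3:**
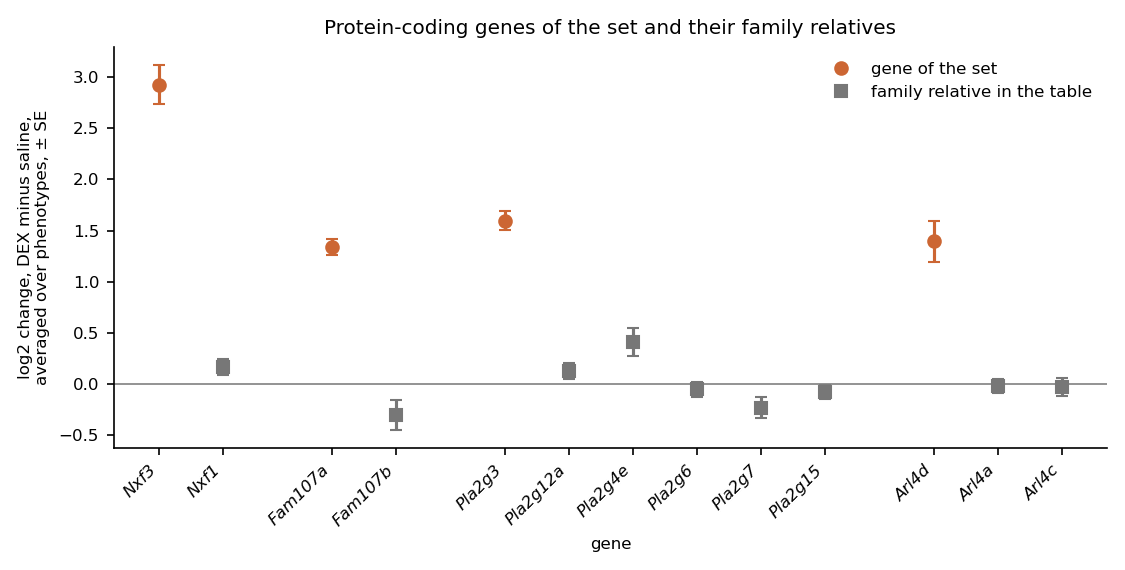
Log2 change, DEX minus saline averaged over the 3 phenotypes, with SE, of the 4 protein-coding members (circles) and their family relatives in the table (squares). The members, which were chosen on this change, lie between 1.34 and 2.92. The 9 relatives lie between -0.30 and 0.41, none of them called.

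The genes around the members were also measured. Of 37 genes of the table whose span comes within 200 kb of a member, 1 was called higher with DEX and 0 lower. Over all genes 2.78% were called higher and 1.53% lower, so the count is near the share of all genes. The 1 gene was Smtn, encoding the contractile protein smoothelin, whose start lies 52.3 kb from that of Pla2g3 and whose log2 change was 0.50 (SE 0.13, adjusted p = 0.0512). Leaving out 1 library at a time lost this call in 5 of 16 fits. Arhgef26 and Inpp5j, which share exon bases with 9330121J05Rik and Pla2g3, were not called, Inpp5j with a log2 change of 0.15 (SE 0.13, adjusted p = 0.611). Around Nxf3, the 11 neighbours, mostly genes of the Bex and Tceal families, had log2 changes between -0.29 and -0.02.

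**Figure D4:**
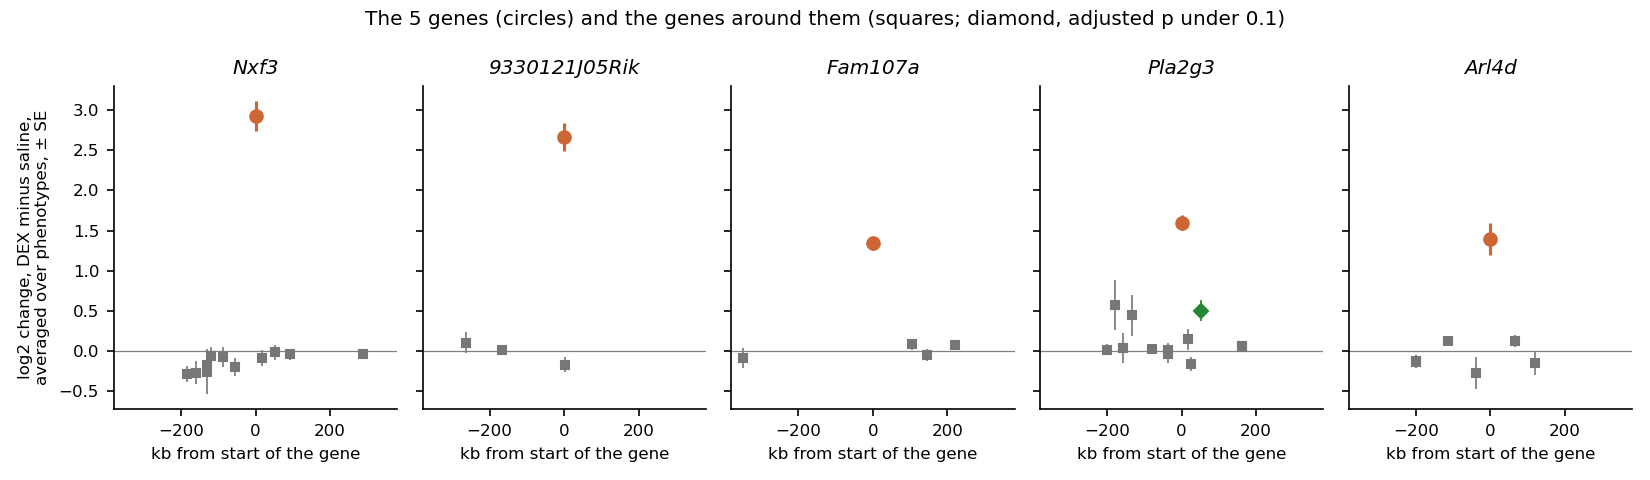
Log2 change, DEX minus saline averaged over the 3 phenotypes, with SE, against the distance in kb between the start of each neighbouring gene and the start of the member at 0. The members (circles) were chosen on this change, so their place above all 37 neighbours (squares) is no finding. Smtn near Pla2g3 (diamond, 0.50) was the only neighbour called.

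Among known glucocorticoid target genes, a list put together with earlier results of these data in view and so no independent evidence, 22 of 26 listed genes were called higher and 0 lower, with a median log2 change of 0.80 against -0.0026 over all genes. They were Fkbp5, Sgk1, Tsc22d3, Per1, Zbtb16, Cdkn1a, Plin4, Sult1a1, Hif3a, Mertk, Klf9, Nfkbia, Errfi1, Ddit4, Mt1, Mt2, Pdk4, Klf15, Gpd1, Arrdc2, Map3k6 and Angptl4. The average change of Nxf3 (2.92) and 9330121J05Rik (2.67) was above that of Fkbp5 (2.15), the co-chaperone gene that serves as the usual readout of receptor activity, and the other 3 members lay near Mertk (1.55) and Sgk1 (1.21). In the receptor system itself 3 of 8 genes were called lower, with the glucocorticoid receptor Nr3c1 at -0.54 (SE 0.07, adjusted p = 0.000423), the mineralocorticoid receptor Nr3c2 at -0.36 (SE 0.08, adjusted p = 0.0299) and the co-chaperone Fkbp4 at -0.29 (SE 0.09, adjusted p = 0.0985). Fkbp4 was at the edge of the threshold, and its call was lost under scaling by TMM or quantiles, with robust eBayes, in edgeR on the recovered reads and in 11 of 16 fits with 1 library left out. The call of Nr3c2 was lost in 2 of those 16 fits, with adjusted p of 0.102 without PS saline library 62 and 0.121 without AS DEX library 42.

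The genes most like each member in pattern over the 16 libraries were found by Pearson's r on the log2 scale among 14061 genes with a mean of at least 10. They were Fkbp5 (0.982), Myrip (0.976), Cdkn1a (0.975) for Nxf3, Fam107a (0.975), Fzd2 (0.969), Tspan4 (0.96) for 9330121J05Rik, 9330121J05Rik (0.975), Mxd4 (0.973), Nxf3 (0.969) for Fam107a, Plin4 (0.983), Mertk (0.981), Zbtb16 (0.98) for Pla2g3 and Fsd2 (0.936), Stxbp3 (0.934), Smim3 (0.923) for Arl4d. Since all 16 libraries share the split between saline and DEX, a high value here is shared by many genes that differ between the treatments. Between members r ran from 0.826 to 0.975, and after removal of the group means it ran from -0.26 to 0.50.

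The libraries are of bulk tissue, in which fewer cells of a type and less RNA per cell cannot be told apart. Of 12 astrocyte markers, 2 were called higher with DEX (Gjb6 and Fgfr3) and 1 lower (S1pr1), and the summed level of the list ranged from 140539.7 to 173626 normalized counts at saline and from 153799.9 to 166389 after DEX. Of 12 oligodendrocyte and myelin markers 7 were called lower, with sums of 134835 to 221585 at saline and 131684 to 184722 after DEX. Of 10 microglia markers 3 were called lower, with sums of 9860.1 to 15512 at saline and 8929 to 10755 after DEX. In the serotonin neuron list 2 of 11 were called lower (Htr1a and Slc22a3), in the endothelial and mural list 2 of 12 were called lower, in the precursor list 1 of 7 was called in each direction, and in the ependymal (10), choroid plexus (4) and blood (4) lists 0 were called.

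The ependymal list varied most between libraries, with sums of 3844 to 11769 normalized counts at saline and 1960.1 to 19874 after DEX. In the PS DEX group the sum was 1960.1 in library 6, 8253 in library 34 and 19874 in library 64, and Nxf3, 9330121J05Rik and Fam107a were also lowest in library 6 and highest in library 64. Relative to the group mean on the log2 scale, library 6 was at -0.49 and library 64 at 0.49 for Nxf3, at -0.20 and 0.16 for 9330121J05Rik, and at -0.31 and 0.29 for Fam107a. In the PS saline group the sum was 8848 in library 62 and 3976 in library 68, and library 62 was also the higher for Nxf3 (0.52 above the group mean), 9330121J05Rik (0.46 above) and Fam107a (0.07 above). The AS libraries did not share this order for Nxf3, which was highest at saline in library 8, with the lowest ependymal sum of its group (4873). After DEX, Nxf3 and 9330121J05Rik were higher in AS library 42, with the lower sum (3582 against 11261 in library 38), and Fam107a in library 38. At AS saline 9330121J05Rik followed the order of the sums (70.1, 46.7 and 36.7 in libraries 14, 40 and 8), and Fam107a did not. In control DEX libraries only Nxf3 of these genes followed it, and at control saline only Fam107a. In the PS DEX group Pla2g3 was highest in library 34, and Arl4d was lowest in library 64. The PS libraries named above are the ones behind the wide PS DEX range of Fam107a. They also underlie the shifts of Nxf3 and 9330121J05Rik when PS saline library 62 or 68 was left out. The part of these marker levels in the levels of the 5 genes was not tested.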

How the data were processed

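Transcript levels were measured by strand-specific paired-end sequencing of polyA RNA from 16 DRN libraries of 6 groups. The table deposited by the authors holds a signal value per gene and library, the normalized count, that is a gene's read count divided by the library's DESeq2 size factor. Per the submitters' processing notes and the study's methods, reads were trimmed with fastp 0.20.1, aligned to GRCm38 with HISAT2 2.2.1, counted with featureCounts of Subread 2.0 and normalized with DESeq2 1.36.0. Whether the counting used read strand is not given in the sources used here. The methods state a minimum of 10 reads in each sample, and 973 genes of the table fell below it in at least 1 library. The authors' own comparison tables (log2 fold changes, p-values and adjusted p-values) were not used. Multiplying each column by its size factor gave whole reads for 100% of the values within 0.01 of a whole number.

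The main fit was limma 3.58.1 in R 4.3.3 (lmFit, then eBayes with trend) on log2(normalized count + 1), with 6 group means as its terms and no filter, and Benjamini-Hochberg adjustment over 14504 genes. An adjusted p under 0.1 counted as a call, as in the study. Since the values are no raw counts, edgeR 4.0.16 and DESeq2 1.42.0 on the recovered reads served as alternatives. They called 622 and 904 genes for DEX minus saline averaged over phenotypes, against 625 by limma. The limma fit was tested on simulated data with known changes, for PS minus control at saline only. That test required the right sign and median size of the changes and set no condition on the share recovered. It is therefore no measure here of how many changes that contrast would miss. The other contrasts, edgeR and DESeq2 were not tested in this way. The members and gene lists were chosen with earlier results of these data known. Besides the members, the named genes were those of the family, receptor and target lists where called, the close paralogs, the neighbours within 200 kb, the 3 genes with the highest Pearson r with each member, and Tph2, Slc6a4 and Fev. Gene positions and exon lengths came from GENCODE vM21, whereas the authors counted on vM22, and 14493 of 14504 genes had a length. P-values measure the spread between libraries, taken as separate mice from their numbers. Depths of 38207157 to 62447298 reads limit precision most for the members with the fewest reads.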

Additional observations from a re-analysis of the deposited data

How the results depend on the processing

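No member was called in any stress contrast, interaction or F test under any of the 27 alternatives (11 of method or filter and 16 leaving out 1 library each), and the lowest adjusted p was 0.143, for the AS minus PS interaction of 9330121J05Rik with limma's library weights. The average DEX change of each member moved by less than its SD within groups under every alternative run. Over all genes, library weights called 771 genes higher and 557 lower with DEX, and DESeq2 called 352 lower. Leaving out 1 library gave 257 to 482 genes higher and 99 to 265 lower, with 257 and 99 without AS DEX library 42. The number lower was also 1.82 times smaller without PS saline library 68 and 1.6 times smaller without con_dex_122. Over all genes, up to 20 were called in a stress contrast, that maximum being AS minus control at saline without con_sal_102. Arl4a turned to 0.00752 under library weights and ranged from -0.0466 to 0.0135 with a library left out, and Arl4c ranged from -0.0714 to 0.0149. Among the 2 members with a promoter window, the looser pair was in 1 and the strict pair in 0.

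No paired analysis was possible because the animal numbers in the labels differ between all groups. The planned search 5 kb on each side of the starts was not run, since it needs a genome sequence, the F test was not run in DESeq2 or within pairs of groups, and the average over phenotypes has no fit restricted to the groups compared. Depth limits Nxf3 and 9330121J05Rik most, with 18 to 63 reads per saline library, and 2 libraries in the PS saline and AS DEX groups limit every contrast that uses them.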
